A study of Mus musculus with 12 samples.

Results

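The genes for the proteins that coat, fuse and build lipid droplets were followed in the subcutaneous adipose tissue (SAT) and the liver (LIV) of mice on a high-fat diet (HFD). They are the perilipins Plin1, Plin2, Plin3, Plin4 and Plin5, the CIDE genes Cidea, Cideb and Cidec, and the droplet assembly genes Bscl2 and Fitm2. All 10 were found by their symbol, each by 1 of the 22206 probe sets tested. The arrays came from 6 male C57BL/6N mice, with 1 array for each tissue of each mouse and 12 arrays in all. The 3 HFD+LY mice (animals 16, 18 and 20) received LY2584702 tosylate (LY), an oral inhibitor of the ribosomal protein S6 kinase S6K1, and the 3 HFD mice (animals 8, 11 and 14) received the vehicle. Dosing was by gavage every 12 hours for 12 weeks, with LY at 25 mg/kg, starting at 8 weeks of age, and for the last 10 weeks all 6 mice ate a diet with 60% of its calories from fat. SAT was the inguinal depot. Both groups were therefore fat-fed, and no lean mice were analysed here.

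A lipid droplet is a core of triglycerides and sterol esters under a single layer of phospholipid, and it is the storage organelle of the fat cell and of the fat-laden hepatocyte. Droplets are born in the membrane of the endoplasmic reticulum, where seipin (Bscl2) and Fitm2 help them to form and bud. Perilipins then cover the surface and govern the access of lipases, while CIDE proteins gather at the contacts between droplets and pass lipid from the smaller to the larger one. PPARG in fat cells and PPARA in hepatocytes are known to drive several of these genes.

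The stretches upstream of 3 members were read from RefSeq (GRCm38.p6): Plin4 and Cidec, because their liver signals differed most between the groups, and Plin2, because its window was the only one with a match to the PPAR-type element searched. Each is the 250 bases before an annotated transcription start, 5' to 3' on the gene's own strand; for Cidec, the start lying farthest upstream is shown. Capitals mark such an element (AGGTCA, 1 base of any kind, AGGTCA, with up to 2 mismatches) or a TATAAA or TATAAG box, each sought on both strands.
Plin4, chr17:56109783-56110032, minus strand: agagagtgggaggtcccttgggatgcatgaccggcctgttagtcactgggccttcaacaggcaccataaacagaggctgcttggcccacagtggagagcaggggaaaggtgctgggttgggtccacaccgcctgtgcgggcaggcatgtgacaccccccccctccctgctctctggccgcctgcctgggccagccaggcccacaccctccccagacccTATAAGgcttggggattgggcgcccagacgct
Cidec, chr6:113435761-113436010, minus strand: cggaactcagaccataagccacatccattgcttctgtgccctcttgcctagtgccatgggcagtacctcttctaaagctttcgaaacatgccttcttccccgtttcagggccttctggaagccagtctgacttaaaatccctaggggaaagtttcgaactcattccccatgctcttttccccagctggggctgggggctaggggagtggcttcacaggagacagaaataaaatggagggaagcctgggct
Plin2, chr4:86670060-86670309, minus strand: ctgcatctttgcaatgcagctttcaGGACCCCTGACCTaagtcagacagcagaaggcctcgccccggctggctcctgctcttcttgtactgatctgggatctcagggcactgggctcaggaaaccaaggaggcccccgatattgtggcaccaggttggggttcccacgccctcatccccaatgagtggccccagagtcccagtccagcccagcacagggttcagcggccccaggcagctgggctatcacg
Plin4 carried a TATAAG box at base -32, counted from its start, and Cidec no match to either motif in this window. The element in Plin2 had 2 mismatches and holds the complement of an exact AGGTCA, and it began at base -225. Of the 13 windows of the 9 members matched (not Cidea), 1 held the element and 3 a TATAAA or TATAAG box. Among all 32851 windows these shares were 3.24% and 17.0%, and a match is a description of the letters, not a binding site. Plin4 and Plin5 are neighbours on chromosome 17 with 0 annotated genes between them.

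The tissues carried the markers of their labels. The mean log2 signal of 6 adipocyte genes was 12.5 to 12.8 in SAT and 7.40 to 7.86 in LIV, and that of 10 hepatocyte genes was 7.70 to 7.94 in SAT and 13.4 on every LIV array. A pair of SAT arrays stood apart. Across 20 skeletal muscle genes the mean was 12.4 in HFD+LY animal 20 and 12.7 in HFD animal 11, with 9.15 in HFD animal 14 and 7.83 to 7.98 on the other 3 SAT arrays. The results for SAT are therefore also given without animals 11 and 20. All values below are log2 signals from RMA, so that a difference of 1 stands for a 2-fold change. Since these are bulk tissues, fewer cells of a type and less RNA per cell cannot be told apart.

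Most members differed between fat and liver. By limma, SAT minus LIV over the 6 mice passed an adjusted p under 0.05 for 9 of 10 members, 7 higher in SAT and 2 lower, where 29.2% of all probe sets were higher and 30.7% lower. The median difference was 1.26 for the members and -0.048 for all probe sets. Cidec, which fuses droplets in the white fat cell, differed most (4.76, standard error 0.096), and its SAT signal was 27.1-fold that in LIV. Plin1, the coat that guards the droplets of fat cells against lipases, followed with 4.58 (standard error 0.079), or 23.9-fold. Plin4, a perilipin of fat cells that covers young droplets, differed by 3.27 (standard error 0.13), and Cidea, the CIDE gene of brown fat, by 2.38 (standard error 0.28). For Cidea this is a lower limit, since its LIV signals were dim, above 18.2% to 30.2% of all probe sets. The folds of Cidec and Plin1 may be lower limits too. Their LIV signals (7.77 to 8.66 and 8.17 to 8.37) lay inside the spread of 20 skeletal muscle genes there, 5.48 (Tnnt3) to 9.66 (Neb). How far they stand above the background of the array was not tested.

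The assembly genes leaned the same way by less. Bscl2 differed by 1.48 (standard error 0.099) and Fitm2 by 1.03 (standard error 0.084), with no overlap between the tissues in either. In the other direction, Cideb, the CIDE gene of hepatocytes that helps to lipidate lipoproteins, was at least 9.54-fold lower in SAT (difference -3.25, standard error 0.10), a lower limit because its SAT signals were dim, above 25.3% to 34.8% of all probe sets. Plin5, which ties droplets to mitochondria in tissues that burn fat, was lower as well (-1.10, standard error 0.12), by 2.14-fold. Adjusted p from limma was at most 8.34e-06 for these 8 genes.

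The perilipins that are made in most cells differed little between the tissues. Plin2, the main coat of the steatotic hepatocyte, lay above 98.4% to 99.8% of all probe sets on the arrays of both tissues, and its difference of 0.23 (standard error 0.12, 95% interval -0.04 to 0.50) did not pass (adjusted p = 0.127 from limma). Without HFD animal 11 it was 0.34 and passed (adjusted p = 0.00994). Plin3, which moves from the cytosol onto growing droplets, had 0.23 (standard error 0.089) with overlapping tissues and passed (adjusted p = 0.0389), but not after median centring (0.16, adjusted p = 0.112), nor without HFD+LY animal 18 (adjusted p = 0.108), HFD+LY animal 20 (0.143) or HFD animal 8 (0.108).

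Within single animals the tissue contrast ran the same way in 6 of 6 mice for the other 8 members. For Cidec, SAT minus LIV was 4.98, 5.10 and 4.78 in HFD+LY animals 16, 18 and 20, and 4.76, 4.12 and 4.83 in HFD animals 8, 11 and 14. For Plin4 it was 3.96, 3.86 and 3.12 in HFD+LY mice, and 3.22, 2.64 and 2.82 in HFD mice. In each group, the smallest contrast of both genes fell in an animal with muscle signal in SAT. These were animal 20 among the HFD+LY mice and animal 11 among the HFD mice. In animal 20 the LIV signals were the highest of the HFD+LY group, 8.17 for Cidec and 9.63 for Plin4. Its SAT signal was the highest of that group for Cidec (12.95) and the lowest for Plin4 (12.75, against 12.80 in animal 18). In animal 11 both SAT signals were the lowest of the HFD group (12.78 and 12.73), and LIV Cidec (8.66) was the highest. The part of the muscle signal in these contrasts was not tested.

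**Figure D1:**
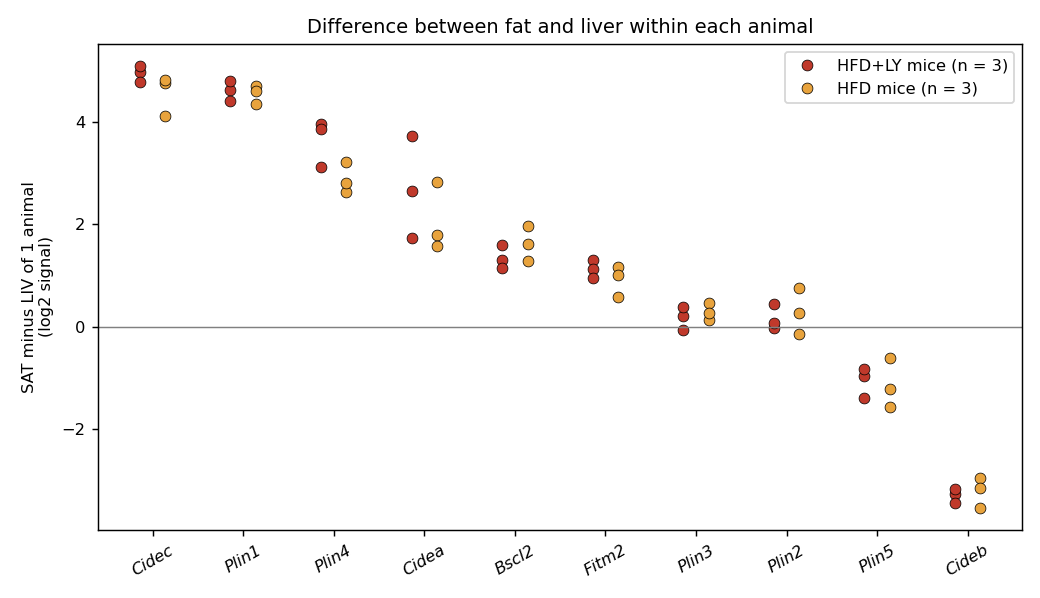
SAT minus LIV in log2 signal (y axis) for the 10 members (x axis), 1 point for each animal, with the 3 HFD+LY mice to the left of the 3 HFD mice. Cidec and Plin1 lie at 4.12 or more in all 6 animals and Cideb at -2.95 or less, while the points of Plin2 and Plin3 lie on both sides of 0.

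In LIV, 2 of the 10 members were lower in HFD+LY mice, Cidec and Plin4, at an unadjusted p under 0.05 from limma, and 0 were higher. Without HFD animal 8 there were 3, with Cidea added (difference -0.32, unadjusted p = 0.0498, adjusted p = 0.579 from limma), where 4.96% of all probe sets were lower. With all 6 livers the background for such calls was 3.94% of all probe sets lower and 2.96% higher. None of the members passed the adjusted threshold, which 0.0045% of all probe sets did (1 of 22206). The median difference was -0.13 for the members and -0.0066 for all probe sets, and 7 of the 10 were negative.

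Cidec in LIV read 7.89, 7.77 and 8.17 in HFD+LY animals 16, 18 and 20, and 8.41, 8.66 and 8.27 in HFD animals 8, 11 and 14. All 3 treated livers lay below all 3 HFD livers. In rodents, Cidec is a gene that fatty livers switch on and that enlarges their droplets. The means were 7.94 ± 0.20 in HFD+LY mice and 8.45 ± 0.20 in HFD mice (SD, n = 3 each), a difference of -0.50 (standard error 0.14, 95% interval -0.82 to -0.19), or 1.42-fold lower. Its unadjusted p from limma was 0.00601, and its adjusted p was 0.685. These signals lay close to the middle of the array, above 41.1% to 49.7% of all probe sets in HFD+LY mice and above 51.1% to 59.7% in HFD mice. The mean of the 20 skeletal muscle genes on the LIV arrays was 7.57 to 7.72. Their single signals ran from 5.48 (Tnnt3) to 9.66 (Neb), and those of Cidec lay inside this spread. How far the Cidec signals stand above the background of the array was not tested.

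Plin4 in LIV read 9.06, 8.94 and 9.63 in HFD+LY animals 16, 18 and 20, and 9.59, 10.09 and 10.15 in HFD animals 8, 11 and 14. The groups touched at a single pair, since HFD+LY animal 20 lay just above HFD animal 8. The means were 9.21 ± 0.37 in HFD+LY mice and 9.95 ± 0.31 in HFD mice (SD, n = 3 each), a difference of -0.74 (standard error 0.21, 95% interval -1.21 to -0.27), or 1.67-fold lower. Its unadjusted p from limma was 0.00648 and its adjusted p 0.685, and with the methods' t-test in place of limma it lost its call (unadjusted p = 0.0566, adjusted p = 0.758).

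Plin2, Cidea and Fitm2 had lower signals in all 3 treated livers than in any HFD liver, without passing the test. Together with Cidec that makes 4 of 10 members without overlap and lower, and 0 without overlap and higher, where 6.89% and 5.61% of all probe sets were so. Plin2 read 12.79, 12.74 and 12.58 in HFD+LY livers and 12.82, 12.87 and 13.06 in HFD livers, a difference of -0.21 (standard error 0.10, unadjusted p = 0.0721 and adjusted p = 0.719 from limma). Cidea, which fatty livers also make, read 6.94, 6.81 and 6.79 in HFD+LY livers and 6.96, 6.97 and 7.36 in HFD livers (-0.25, standard error 0.13, unadjusted p = 0.0790 and adjusted p = 0.725 from limma). These are its dim LIV signals, and the highest treated liver lay just below the lowest HFD liver. Fitm2 read 10.22, 10.47 and 10.44 in HFD+LY livers and 10.48, 10.63 and 10.53 in HFD livers, a difference of -0.17 (standard error 0.10, unadjusted p = 0.143 and adjusted p = 0.762 from limma), and here the groups all but touched.

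The remaining 5 members overlapped in LIV. Plin1 had a difference of 0.0037 (95% interval -0.21 to 0.22), Plin3 one of 0.011 (-0.28 to 0.30) and Cideb one of 0.05 (-0.23 to 0.33). Bscl2 had -0.07 (-0.28 to 0.14). Plin5 had -0.09 (-0.53 to 0.35): it read 9.53, 9.54 and 9.996 in HFD+LY livers and 9.43, 9.76 and 10.14 in HFD livers, so the HFD+LY livers lay inside the range of the HFD livers.

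**Figure D2:**
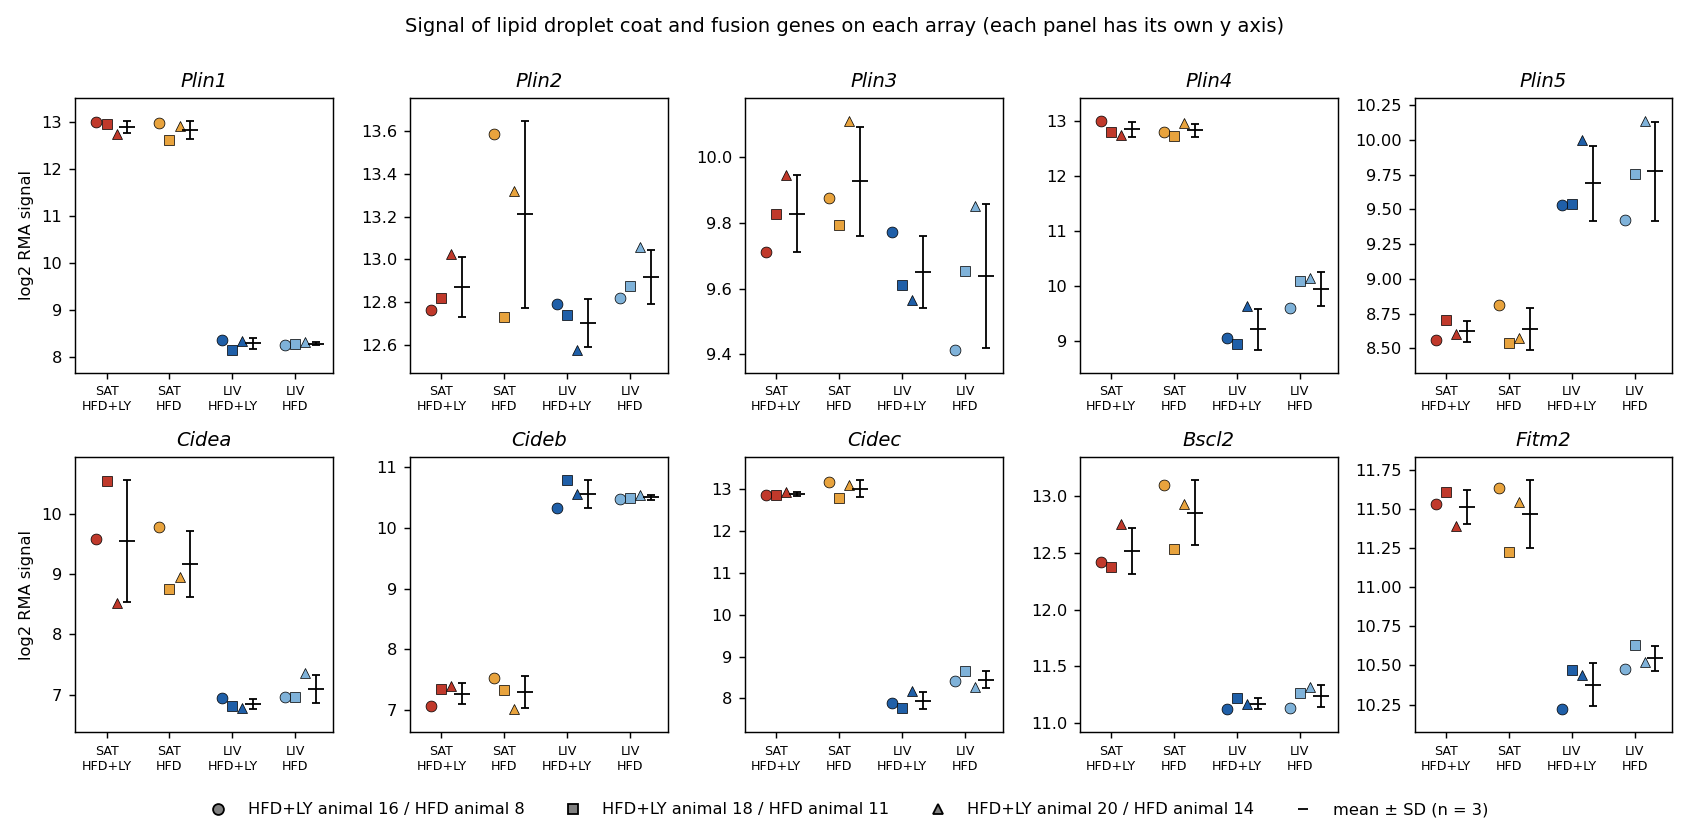
Log2 RMA signal (y axis, its own range in each panel) of each member on all 12 arrays, with SAT HFD+LY, SAT HFD, LIV HFD+LY and LIV HFD from left to right on the x axis, 1 symbol for each animal, and the mean ± SD of 3 mice beside them. In LIV the HFD+LY symbols of Cidec lie below all HFD symbols and those of Plin4 reach them (9.63 against 9.59), while in SAT every panel shows overlap.

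Other cell type markers differed in the same livers. The 6 adipocyte genes measured of 8 listed were all negative in LIV. Of these, 2 (Lep and Fabp4) were lower at an unadjusted p under 0.05 from limma. At that threshold 3.94% of all probe sets were lower in LIV and 2.96% higher. The mean of the 6 genes was 7.40 to 7.61 in HFD+LY livers and 7.70 to 7.86 in HFD livers, without overlap. Adipoq, a hormone gene of fat cells, stood at 6.25 to 6.38 in HFD+LY livers and 6.39 to 6.72 in HFD livers, against 13.3 to 13.6 in SAT. The LIV signals of Adipoq and of Lep (6.53 to 7.21) lay within or below the dim range of Cidea there (6.79 to 7.36). Those of Retn (7.17 to 7.66), Adig (7.17 to 7.78) and Slc2a4 (7.20 to 7.89) lay near the mean of the skeletal muscle genes in LIV (7.57 to 7.72). Fabp4 alone was brighter (9.71 to 10.5), so most of this adipocyte mean came from dim signals. Plin1, itself a defining gene of the fat cell, read 8.37, 8.17 and 8.35 in HFD+LY livers and 8.27, 8.28 and 8.33 in HFD livers, with overlap. The 10 macrophage genes measured of 11 listed had a mean of 8.15 to 8.35 in HFD+LY livers and 8.46 to 8.68 in HFD livers, again without overlap, with 3 of 10 lower (Lyz2, Cd14 and C1qa). The mean of 10 hepatocyte genes was 13.39 to 13.40 in HFD+LY livers and 13.35 to 13.37 in HFD livers, without overlap, with 1 of 10 higher (Apoa1). The median difference of the 10 was 0.024, with 7 positive and 3 negative, and that of Apoa1 was 0.24. That of 7 stellate cell genes was 8.37 to 8.50 in HFD+LY livers and 8.38 to 8.71 in HFD livers. The part of these markers in the differences of Cidec and Plin4 was not tested.

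**Figure D3:**
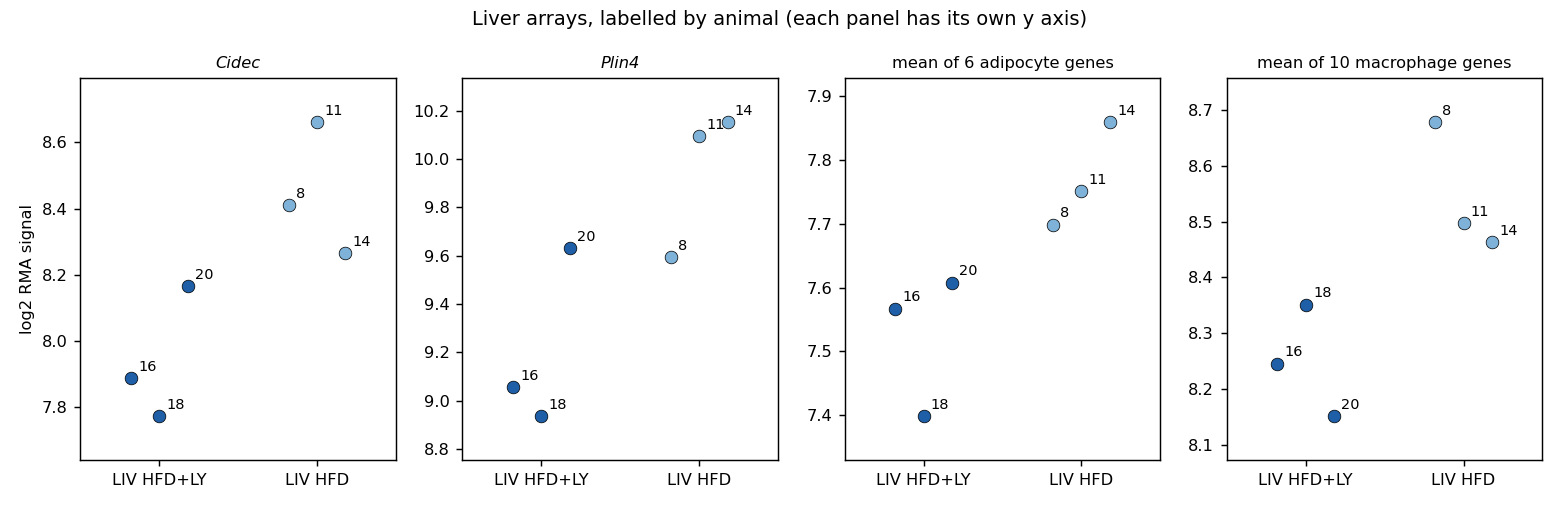
Log2 RMA signal (y axis, its own range in each panel) of Cidec and Plin4, and the mean over 6 adipocyte and over 10 macrophage genes, on the 3 LIV HFD+LY arrays (left) and the 3 LIV HFD arrays (right), each point labelled with its animal. The groups are apart for Cidec and both marker means, and meet for Plin4 where HFD+LY animal 20 (9.63) lies beside HFD animal 8 (9.59).

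In SAT, 0 of the 10 members passed at an unadjusted p under 0.05 from limma in either direction, where 1.86% of all probe sets were higher and 3.19% lower. In all 10 the groups overlapped, while 4.01% of all probe sets were without overlap and higher and 5.48% without overlap and lower. The adjusted threshold was passed by 0% of all probe sets and by 0 members, with an adjusted p of 0.981 or more. The median difference was -0.019 for the members and -0.0048 for all probe sets. The main droplet genes of the fat cell had intervals on both sides of 0: Plin1 had 0.06 (interval -0.23 to 0.36), Plin4 had 0.02 (-0.24 to 0.28) and Cidec had -0.12 (-0.40 to 0.16).

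Bscl2 and Plin2 came nearest to the threshold. Bscl2 in SAT read 12.43, 12.37 and 12.76 in HFD+LY animals 16, 18 and 20, and 13.10, 12.54 and 12.93 in HFD animals 8, 11 and 14. Seipin is needed for fat storage as such, and its loss in people causes a congenital lack of fat. The means were 12.52 ± 0.21 in HFD+LY mice and 12.86 ± 0.29 in HFD mice (SD, n = 3 each), a difference of -0.34 (standard error 0.17, unadjusted p = 0.0795 and adjusted p = 0.981 from limma). Plin2 in SAT read 12.76, 12.82 and 13.03 in HFD+LY animals and 13.58, 12.73 and 13.32 in HFD animals. The means were 12.87 ± 0.14 in HFD+LY mice and 13.21 ± 0.44 in HFD mice (SD, n = 3 each), again a difference of -0.34 (standard error 0.21, unadjusted p = 0.138 and adjusted p = 0.994 from limma). HFD animal 11 lay within the range of the HFD+LY mice for Bscl2 and just below it for Plin2, and HFD+LY animal 20 had the highest signal of its group for both. These are the 2 arrays with muscle signal. Of the other markers in SAT, the mean of the adipocyte genes was 12.49 to 12.66 in HFD+LY mice and 12.67 to 12.76 in HFD mice. The groups did not overlap but all but touched. At an unadjusted p under 0.05 from limma, 2 of 6 were lower (Adipoq and Retn), where 3.19% of all probe sets were lower. The mean of the macrophage genes was 9.57 to 9.62 in HFD+LY mice and 9.41 to 9.93 in HFD mice, with 2 of 10 lower (Lyz2 and Itgam). The mean of the 10 hepatocyte genes was 7.70 to 7.79 in HFD+LY mice and 7.82 to 7.94 in HFD mice, without overlap, with 1 of 10 lower (Apoa1). Alb, the brightest of them on most SAT arrays, read 8.84 in animal 20, against 10.3 to 10.6 on the others. The rest ran from 5.50 (Tat) to 9.04 (Apoc3) in SAT, so this mean is largely one of dim signals. The part of all these markers in the values of Bscl2 and Plin2 was not tested.

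Without these 2 arrays, 4 remained, and the differences of Bscl2 and Plin2 were larger. Bscl2 was then lower (-0.62, standard error 0.10, adjusted p = 0.0335 from limma), and so was Plin2 (-0.66, standard error 0.12, adjusted p = 0.0385). They were the 2 members past the adjusted threshold, both lower, as were 1.83% of all probe sets (406 of 22206). Cidec had -0.26 (standard error 0.096, unadjusted p = 0.0268 and adjusted p = 0.205), so that 3 members were lower at an unadjusted p under 0.05, where 10.3% of all probe sets were. Leaving out HFD animal 11 alone also gave 3, with -0.50 for Bscl2, -0.58 for Plin2 and -0.24 for Cidec, where 6.49% of all probe sets were lower. Leaving out HFD+LY animal 20 alone gave 1, Bscl2 with -0.46, where 5.52% of all probe sets were lower. The setting without both animals keeps HFD animal 14, whose muscle mean was 9.15, and rests on 2 mice a group. The part of the muscle signal in these values was not tested.

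**Figure D4:**
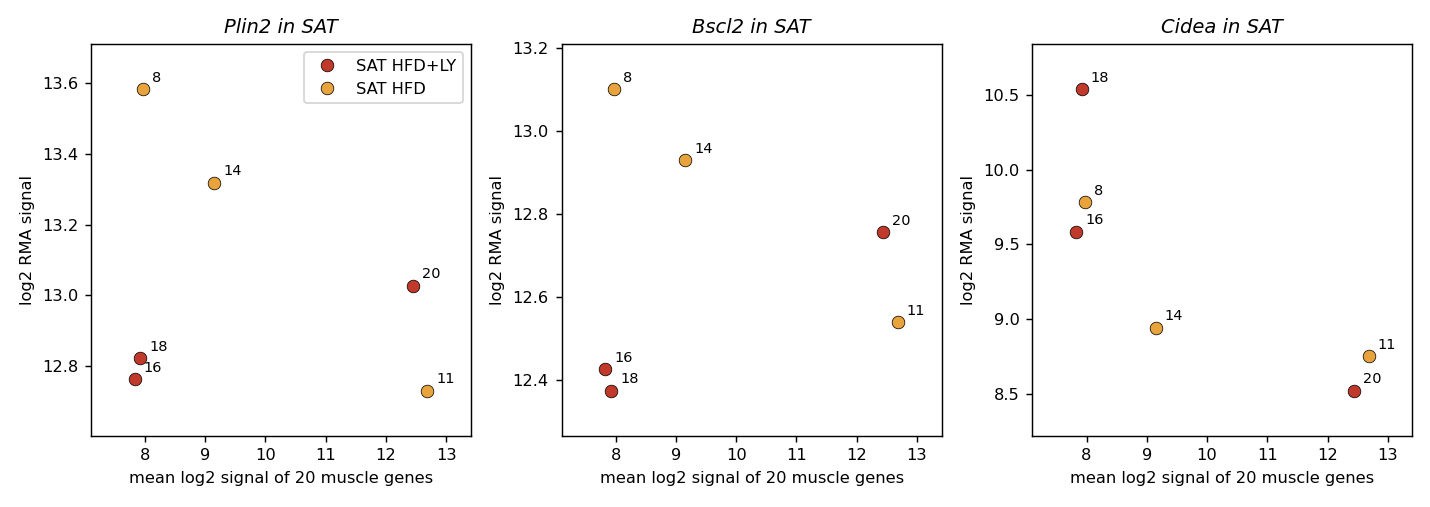
Log2 RMA signal of Plin2, Bscl2 and Cidea in SAT (y axes) against the mean log2 signal of 20 skeletal muscle genes on the same array (x axis), 3 HFD+LY and 3 HFD mice, each point labelled with its animal. At muscle means of 7.83 to 9.15, the HFD+LY points of Plin2 and Bscl2 lie below both HFD points, and at 12.4 (animal 20) and 12.7 (animal 11) the order is the reverse.

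Cidea had the widest spread of the members in SAT. It read 9.59, 10.54 and 8.52 in HFD+LY animals 16, 18 and 20, and 9.78, 8.76 and 8.94 in HFD animals 8, 11 and 14. The HFD+LY group thus held both the highest and the lowest array, and the difference of 0.39 (standard error 0.48, interval -0.72 to 1.49, unadjusted p = 0.441 and adjusted p = 0.995 from limma) was within the spread between replicates. It was -0.11 without animal 18 and 0.90 without animal 20 (unadjusted p = 0.0507, adjusted p = 0.410 from limma). In mice Cidea marks brown and beige fat cells, whose defining gene Ucp1 stood at 6.25, 6.70 and 6.03 on the HFD+LY arrays and at 6.04, 7.55 and 6.04 on the HFD arrays. In LIV, Ucp1 read 5.72 to 6.21, a range that holds its SAT signals of 6.03 and 6.04. SAT minus LIV of Ucp1 did not pass (adjusted p = 0.131 from limma). The array with the highest Ucp1, HFD animal 11, was not the one with the highest Cidea. The mean of 9 brown or beige fat genes was 8.43 to 9.22 in HFD+LY mice and 8.53 to 9.37 in HFD mice, and its highest values were on the arrays of animals 20 and 11, where Cidea was lowest. Not all 9 genes were high there. Cox7a1, Cox8b and Cpt1b, which skeletal muscle or heart also make, were: Cox7a1 stood at 12.2 in animal 20 and 12.6 in animal 11, against 9.80 to 10.2 on the other 4 arrays, and Cpt1b at 10.5 and 10.9, against 8.76 to 9.31. Zic1 also had its highest signals on these 2 arrays (9.03 and 8.95, against 8.48 to 8.77). Elovl3 (7.37) and Dio2 (7.01) were highest in animal 20, and Kcnk3 in animal 14 (9.24). Otop1 had its lowest signals on the arrays of animals 20 and 11 (9.73 and 9.79). Ucp1 in animal 20 (6.03) was level with animals 8 and 14 (6.04). The part of the muscle signal in the mean of these genes was not tested.

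The intervals of the remaining 4 members in SAT also held 0. Fitm2 had 0.04 (interval -0.26 to 0.34), Plin3 had -0.10 (-0.37 to 0.17) and Plin5 had -0.02 (-0.27 to 0.23). Cideb had -0.02 (-0.38 to 0.33), at its dim SAT signals. Fitm2 was low on the arrays with muscle signal (11.39 in HFD+LY animal 20 and 11.22 in HFD animal 11, against 11.53 to 11.64 on the others). Its paralog Fitm1, the form of skeletal muscle, was high on the same 2 (10.23 and 10.82, against 8.20 to 8.59); it was picked out after its values were seen.

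**Figure D5:**
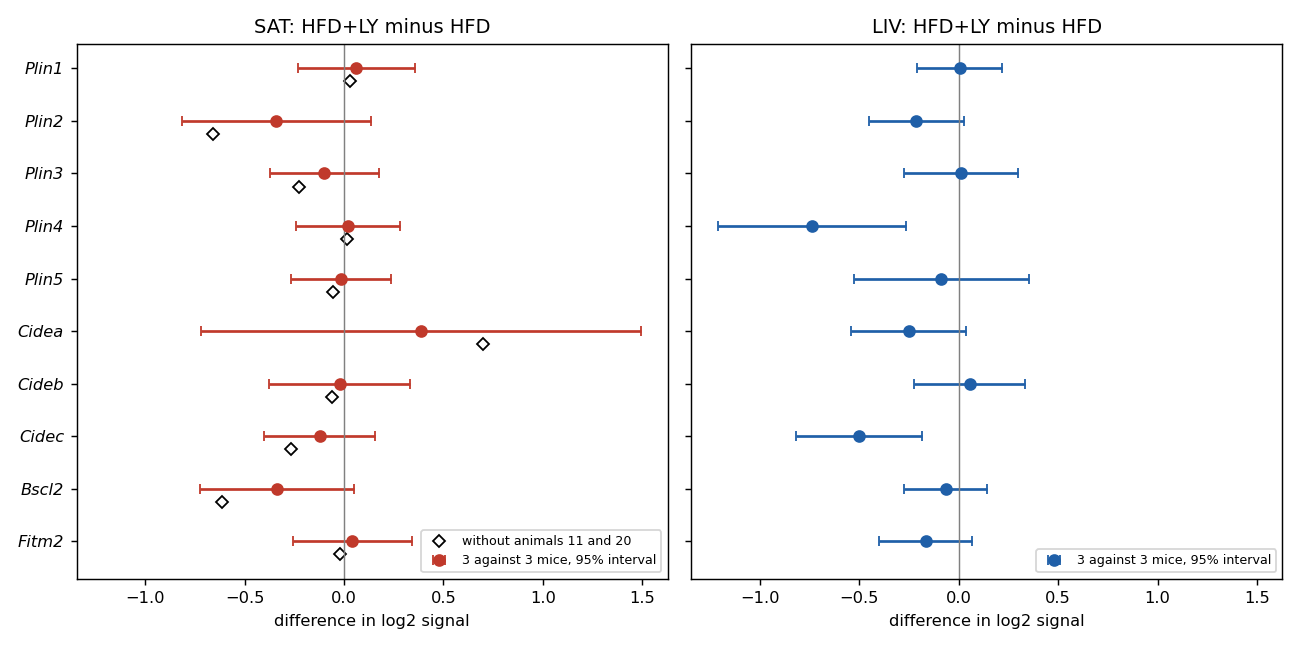
HFD+LY minus HFD in log2 signal (x axis) for the 10 members in SAT (left) and LIV (right), with the 95% interval from limma for 3 against 3 mice. Open diamonds give the SAT values without animals 11 and 20. In LIV the intervals of Plin4 and Cidec lie below 0, in SAT all 10 cross 0, and the diamonds of Plin2 (-0.66) and Bscl2 (-0.62) lie farthest to the left.

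Whether LY acted on a member differently in fat and in liver was tested by limma as the interaction of tissue and treatment. Plin4 was the 1 member with an unadjusted p under 0.05, where 6.21% of all probe sets were (2.77% with a positive value), and the adjusted threshold was passed by 0 members and by 0.0405% of all probe sets. Its difference was 0.02 in SAT and -0.74 in LIV, an interaction of 0.76 (standard error 0.26, unadjusted p = 0.0129 and adjusted p = 0.756 from limma). Without HFD+LY animal 16 it was 0.60 (unadjusted p = 0.0724, adjusted p = 0.99996 from limma) and without HFD animal 11 it was 0.63 (unadjusted p = 0.0646, adjusted p = 0.676). Cidec, with -0.12 in SAT and -0.50 in LIV, had an interaction of 0.38 (standard error 0.19, unadjusted p = 0.0713 and adjusted p = 0.813 from limma), so a difference between the tissues was not shown for it. Without HFD+LY animal 20, 3 members passed the unadjusted threshold, all with a positive interaction: Plin4 (1.02), Cidea (1.12) and Cidec (0.47), where 4.44% of all probe sets did so. Without HFD animal 14, Plin4 (0.72) and Cidec (0.51) passed, both positive, where 2.17% of all probe sets did so. Without HFD animal 11, the 1 member to pass was Bscl2 (-0.44), where 4.98% of all probe sets passed with a negative value.

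Beyond the members, the surrounding droplet machinery was read from a list of 40 genes, 37 of which were measured (not Acsl1, Acsl3 and Vmp1). These are the lipases and their cofactors, the enzymes of triglyceride synthesis, and proteins that anchor or tether droplets. In LIV, 0 were higher and 0 lower by limma at an unadjusted p under 0.05, where 2.96% of all probe sets were higher and 3.94% lower, and their median was 0.02. In SAT, 2 were higher and 1 lower and 34 did not pass, where 1.86% of all probe sets were higher and 3.19% lower, with a median of -0.06, and the adjusted p was 0.915 or more.

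The higher pair were Spg20 and Gpat4. Spg20, which encodes spartin, a droplet protein mutated in a hereditary spastic paraplegia, read 9.85, 10.07 and 9.42 in HFD+LY SAT and 9.03, 9.28 and 9.27 in HFD SAT (difference 0.59, standard error 0.17). Gpat4, which starts glycerolipid synthesis and moves onto growing droplets, read 11.32, 11.38 and 10.89 in HFD+LY SAT and 10.83, 10.68 and 10.88 in HFD SAT (0.40, standard error 0.15). The groups did not overlap in either, and for both the lowest HFD+LY array was that of animal 20. The lower one was Pnpla3, a droplet protein of the lipase family, which read 9.10, 9.53 and 9.68 in HFD+LY SAT and 10.54, 9.58 and 10.38 in HFD SAT (-0.73, standard error 0.26). Here HFD animal 11 lay within the HFD+LY range, as for Bscl2. Gpat4 lost its unadjusted call without animal 16, 18 or 11 (0.34, 0.31 and 0.34), and Pnpla3 without animal 16, 8 or 14 (-0.57, -0.54 and -0.62), while Spg20 kept it whichever animal was left out. With the methods' t-test both Gpat4 (unadjusted p = 0.0761) and Pnpla3 (unadjusted p = 0.100) lost it as well, and Spg20 did not (unadjusted p = 0.0467). Without the SAT of animals 11 and 20, the differences were 0.81 for Spg20, 0.50 for Gpat4 and -1.15 for Pnpla3, with an adjusted p from limma of 0.0252, 0.0482 and 0.0154, where 0.752% of all probe sets were higher and 1.83% lower at the adjusted threshold. That setting rests on 2 mice a group. The genes were picked by their p in all SAT arrays, these among them, so their passing here is not separate support.

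Of 20 transcription factors and other regulators tied to droplet genes, 18 were measured (not Ppard and Esrra). In LIV 0 passed at an unadjusted p under 0.05 from limma, where 6.90% of all probe sets passed in either direction. In SAT 1 of 18 did, where 5.05% of all probe sets passed in either direction. It was Insr, the insulin receptor (0.24, standard error 0.10, unadjusted p = 0.0492 and adjusted p = 0.975 from limma). Insr did not pass without animal 16, 18, 8, 11 or 14 (0.19 to 0.26), nor after median centring (0.25, unadjusted p = 0.0520 from limma). Pparg and Ppara, named here for the background given above and not by their values, did not pass in either tissue. Pparg had -0.039 (standard error 0.12) in SAT and -0.0021 (standard error 0.23) in LIV. Its interval in LIV, -0.52 to 0.52, is wide enough to hold a difference as large as that of Cidec there. Ppara had 0.24 (standard error 0.18) in SAT and -0.11 (standard error 0.094) in LIV. Between the tissues the 2 differed widely, with SAT minus LIV of 2.66 (standard error 0.14) for Pparg and -4.11 (standard error 0.11) for Ppara.

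The symbols most like the member with the smallest p in each tissue were found by Pearson's r over the 6 arrays of that tissue. In SAT, the pattern of Bscl2 was nearest to those of Lctl, Pik3ap1, Apmap, Insig1 and Mlec, with r from 0.994 to 0.997. In LIV, that of Cidec was nearest to those of Dipk2b, Wasf1, C030037D09Rik, Dact3 and Gm13276, with r from 0.992 to 0.994. These are the highest values of a search over 19572 probe sets with a symbol, on only 6 arrays. At the looser cut of an r above 0.9, there were 538 symbols with Bscl2 in SAT and 187 with Cidec in LIV. The 2 arrays with muscle signal are among the 6 of SAT.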

How the data were processed

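RNA from SAT and LIV of 3 HFD+LY and 3 HFD mice was hybridised to Affymetrix whole-transcript arrays (GeneChip WT PLUS labelling). The values deposited by the authors are log2 signals from RMA (background correction, quantile normalization over the 12 arrays, 1 summary per probe set); the submitters' notes name RMA and limma with no version. Quantile normalization forces the same distribution on fat and liver. No genome build of the array was given in the sources used here. For arrays, their number limits the precision: 2-sided exact permutation tests of 3 against 3 cannot go below 0.1.

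The table held 28846 probe sets; without 6640 controls, 22206 were tested with no filter: 19572 had 1 gene symbol, 0 several and 2634 none. Each tissue was fitted alone with limma 3.58.1 (R 4.3.3; 2 group means, lmFit and eBayes), and tissue contrasts in 1 fit of 12 arrays. P-values were adjusted by Benjamini-Hochberg over all 22206, with thresholds of 0.05, adjusted or unadjusted as stated. Labels give the same animal numbers in both tissues, so arrays are paired by animal (deviations from group means correlated by -0.067 to 0.21 over genes). The members, lists, markers and alternatives were chosen with earlier results of these data known, among them the muscle signal of animals 11 and 20. Named were all members, up to 4 genes in each direction from each list and tissue with the smallest p under 0.05, and for 1 member a tissue the 5 symbols with the highest r; exceptions are stated. Alternatives were 1 fit for all arrays, a trended prior, quantile or median normalization, leaving out the dimmest 30% of probe sets, array weights, the methods' t-test, the animal as a block, each treatment alone and leaving out animals. The fits were tested on simulated data. Nothing says that the mice came from separate litters or cages. Upstream sequences came from RefSeq (GRCm38.p6). Python 3.11.15 with matplotlib 3.10.9 made the figures.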

Additional observations from a re-analysis of the deposited data

Results flagged for a closer look

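Before correction, the LY difference of Plin4 differed between the tissues by a test of that difference. It was 0.02 in SAT and -0.74 in LIV, and the interaction of 0.76 (standard error 0.26) had an unadjusted p of 0.0129 from limma and an adjusted p of 0.756 over all 22206 probe sets, so it does not hold after correction. SAT minus LIV of Plin4 was 3.96, 3.86 and 3.12 in HFD+LY animals 16, 18 and 20, and 3.22, 2.64 and 2.82 in HFD animals 8, 11 and 14, with HFD+LY animal 20 below HFD animal 8. With the animal as a block the interaction was again 0.76, with an unadjusted p of 0.0151 from limma and an adjusted p of 0.728. Its unadjusted call was lost without HFD+LY animal 16 or HFD animal 11. Single genes were not searched for outlying samples, since each group held 3 arrays.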

How the results depend on the processing

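Of the members in SAT, 0 were lower at an unadjusted p under 0.05 from limma. That count was 1 with all 12 arrays in 1 fit (Bscl2, where 3.99% of all probe sets were lower), 4 with array weights (Plin2, Plin3, Cidec and Bscl2, where 12.1% of all probe sets were lower), 0 to 3 without each animal in turn, and 3 without the SAT of animals 11 and 20. The weight was highest for HFD+LY animal 16 (4.46) and lowest for HFD+LY animal 20 (0.32) and HFD animal 11 (0.46). In LIV the count of 2 was 1 with the methods' t-test (Cidec, where 3.76% of all probe sets were lower) and 2 to 3 without each animal. Plin2 in LIV passed the unadjusted threshold with a trended prior (unadjusted p = 0.0125, adjusted p = 0.587 from limma). For the interaction, the count of members past the unadjusted threshold with a positive value was 0 to 3 without each animal (1 with all arrays) and of those with a negative one 0 to 1, with 2 (Plin2 and Bscl2, where 6.21% of all probe sets did so) without both arrays of animals 11 and 20. With the animal as a replicate block the interaction of Plin4 was 0.76 and still the only 1 to pass, SAT minus LIV still passed for 9 members, and the block changed no other call of the members; over all probe sets, 9 passed the adjusted threshold for the interaction without the block and 0 with it.

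Some differences changed sign without an animal, most of them near 0; that of Cidea in SAT (0.39 with all arrays) was not. In SAT they ran from -0.047 to 0.14 for Plin1, -0.061 to 0.085 for Plin4, -0.067 to 0.069 for Plin5, -0.11 to 0.90 for Cidea, -0.16 to 0.097 for Cideb and -0.079 to 0.13 for Fitm2. In LIV they ran from -0.035 to 0.070 for Plin1, -0.10 to 0.12 for Plin3, -0.26 to 0.095 for Plin5 and -0.060 to 0.17 for Cideb. For the interaction they ran from -0.042 to 0.16 for Plin1, -0.34 to 0.11 for Plin2, -0.21 to 0.0092 for Plin3, -0.14 to 0.33 for Plin5 and -0.24 to 0.056 for Cideb. Fitm2 in SAT was -0.021 without animals 11 and 20, and Plin3 in LIV was -0.018 after quantile normalization and -0.010 with array weights. The cause of these shifts was not tested.

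Among unadjusted calls, 36.8% were higher in SAT (49.1% after quantile normalization) and 42.9% in LIV (62.3% after median centring). Leaving out dim probe sets removed Cideb in SAT and Cidea in LIV. The signals of both lie low on the array, where the background limits what a difference can show.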
